A study of Mus musculus with 11 samples.

Results

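The genes described here are 10 members of the bone morphogenetic protein (BMP) pathway, out of 21846 genes in the deposited table: the ligands Bmp2, Bmp4, Bmp7 and Gdf6, the secreted antagonist Grem1, the inhibitory SMAD gene Smad6, and the inhibitor of DNA binding genes Id1, Id2, Id3 and Id4. They were chosen by symbol, with their levels in all 11 libraries in view, to ask whether Smad6 and the Id genes follow the ligands. Their levels, differences and calls are therefore a description, and no test is given for them. Tests are given for 51 other BMP pathway genes.

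RNA was sequenced from mouse mammary carcinoma lines established from tumors of FVBhuHER2 virgin female mice, which carry a human HER2 transgene. All 11 libraries share this origin and the same culture medium. MamBo89 came from tumor A and keeps HER2. Its 4 libraries were an untreated parental culture, an untreated culture labelled AG3 that was taken as the HER2-positive clone listed in the methods, a culture given trastuzumab for 30 days and then 30 days without it, and a culture given trastuzumab for 60 days. MamBo43 came from tumor B and was HER2-positive when untreated (1 library). After either trastuzumab schedule it was listed as HER2-negative by the study's methods and is called MamBo43 TRT (2 libraries). The study also reported that a minor share of HER2-positive cells and some islets of polygonal cells persisted in continuous culture with the antibody. MamBo43 TRT is therefore not a uniform population. MamBo38 came from a tumor grown from injected MamBo43 cells and lacks HER2. It had 2 untreated libraries and 1 under each schedule. Trastuzumab, an antibody against human HER2, was used at 30 µg/ml. Below, the "withdrawn" library of a line is the one with 30 days of antibody and 30 days without, and the other treated library is the 60-day library. Libraries of a line differ in antibody schedule, in clone (MamBo89) or in the library code described below. The p-values measure only the spread between these samples. That spread includes these differences and, for HER2 status, the line, and may be partly technical. The labels do not say whether libraries of a line are otherwise independent cultures. The library names end in 1 of 2 codes. The first code is on 3 MamBo38 libraries, and the second is on the remaining untreated MamBo38 library and on the 7 libraries of the other lines. What the codes mean was not stated. The methods speak of replicates of each sample, whereas the table has 1 column for each library named here, and whether a column combines replicates was not stated.

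BMP ligands are secreted dimers that bring together type I and type II receptor kinases. The receptors phosphorylate SMAD1, SMAD5 and SMAD9, which enter the nucleus with SMAD4. The Id genes are among the best known direct targets. Their products lack a DNA-binding domain and hold bHLH E proteins away from DNA. Smad6 and Smad7 are induced as feedback inhibitors, and Grem1, noggin and chordin bind ligands outside the cell. In the mammary gland the pathway takes part in bud formation and in the exchange between epithelium and stroma.

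The 10 genes were found by identifier in GENCODE M21 on GRCm38, all as protein-coding genes. Bmp2, Bmp7, Grem1 and Id1 lie on chromosome 2, Gdf6 and Id3 on chromosome 4, and Smad6, Id2, Id4 and Bmp4 on chromosomes 9, 12, 13 and 14. Grem1 is at chr2:113746164-113758646 on the minus strand and Bmp4 at chr14:46383520-46390669 on the minus strand. Smad6 spans chr9:63953076-64022059 on the minus strand. Id3 lies at chr4:136143497-136145755 on the plus strand. Few 75-base windows of these genes also occur in transcripts of other genes, with at most 1.09% for Grem1 and 0 for 7 of the 10. The kit keeps no strand, so reads of Bmp4 cannot be told from those of the overlapping antisense gene Gm15217, nor reads of Id4 from those of A330033J07Rik and Gm49291.

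RefSeq promoter windows on GRCm38.p6 were found for 6 of the 10 genes. The 250 bases upstream of the start are shown for Bmp4, the one of the 4 ligand genes with the highest level per exon length outside MamBo89, for Grem1, which had the widest range among the antagonists, and for Smad6, the feedback gene. None of these windows overlaps an annotated exon. They are written 5′ to 3′ on the gene's strand, and capitals mark GGCGCC, the core of the GC-rich element described in BMP-responsive enhancers.
Bmp4 (chr14:46390670-46390919, minus strand): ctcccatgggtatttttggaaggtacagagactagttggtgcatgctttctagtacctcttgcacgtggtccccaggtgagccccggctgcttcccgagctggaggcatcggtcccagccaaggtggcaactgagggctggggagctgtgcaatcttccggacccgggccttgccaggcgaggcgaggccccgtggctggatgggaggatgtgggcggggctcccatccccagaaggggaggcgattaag
Grem1 (chr2:113758649-113758898, minus strand): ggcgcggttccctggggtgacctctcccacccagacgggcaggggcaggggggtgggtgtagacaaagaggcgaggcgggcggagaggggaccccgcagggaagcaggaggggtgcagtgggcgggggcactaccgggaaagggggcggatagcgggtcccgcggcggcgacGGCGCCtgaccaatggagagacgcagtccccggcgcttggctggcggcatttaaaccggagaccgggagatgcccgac
Smad6 (chr9:64022060-64022309, minus strand): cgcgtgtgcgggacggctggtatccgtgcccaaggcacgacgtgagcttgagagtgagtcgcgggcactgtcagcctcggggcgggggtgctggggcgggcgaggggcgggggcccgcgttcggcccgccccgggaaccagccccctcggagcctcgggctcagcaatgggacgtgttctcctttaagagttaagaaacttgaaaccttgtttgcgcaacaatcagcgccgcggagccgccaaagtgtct
GGCGCC reads the same on both strands. It occurred once in the Grem1 window, starting at position -78 from the start site, and not in the Bmp4 or Smad6 window. It occurred in 3 of the 6 windows, those of Grem1, Id2 and Id4, and in 9.59% of 32851 RefSeq windows of this length. CAGAC, the SMAD box searched on both strands, occurred once in the Grem1 window and in 42.2% of all windows, and its letters do not overlap GGCGCC. These matches describe the sequence and are not shown to be sites.

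Total counts ranged from 17040454 to 27127662 per library, with a median of 20592201. Levels are in CPM, which put libraries of different depth on one scale by TMM. The level of 3 counts, used as the floor, was 0.114 to 0.179 CPM. Of 7 epithelial marker genes, 6 were above the floor in every library of MamBo89 and MamBo43. Krt19 was at 0 or 1 count throughout. The summed epithelial level was 2472 to 3890 CPM in MamBo89 and 3369 in untreated MamBo43. It was 1800 in the withdrawn and 292 in the 60-day MamBo43 TRT library, and 1.35 to 2.56 in MamBo38. The summed level of 6 mesenchymal markers was 85.3 to 141 CPM in MamBo89, 271 in untreated MamBo43, 3032 and 3505 in MamBo43 TRT, and 2854 to 4437 in MamBo38. Of 5 leukocyte markers, Cd68 alone passed the floor. The summed leukocyte level was 6.96 to 16.7 CPM in MamBo89 and 1.02 in untreated MamBo43. It was 3.67 and 4.41 in MamBo43 TRT and 27.1 to 49.8 in MamBo38. The summed levels reached 0.890 CPM for 4 endothelial and 2.68 CPM for 3 adipocyte markers. The MamBo43 TRT libraries thus held epithelial RNA that MamBo38 did not, and their epithelial levels differed from each other. In these bulk samples, fewer cells of a type and less RNA per cell cannot be told apart.

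The ligand genes differed between the lines in which gene was used and at what level. Bmp4, a ligand of the BMP2/4 group, was high in MamBo43 before and after trastuzumab, intermediate in MamBo38 and close to absent in MamBo89. Its CPM was 91.3 in untreated MamBo43 and 148 in the withdrawn and 42.2 in the 60-day MamBo43 TRT library. In MamBo38 it was 9.85 and 14.5 in the untreated libraries (first and second code), 10.8 in the withdrawn and 10.2 in the 60-day library. In MamBo89 it was 1.36 in the clone, 0.645 in the parental culture, 0.524 in the withdrawn and 0.109 in the 60-day library, the last resting on 2 counts. The untreated MamBo43 value lay between the values of both MamBo43 TRT libraries, and no other states overlapped. Mean levels were 138-fold higher in untreated MamBo43 than in MamBo89 and 8.06-fold higher than in MamBo38.

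Gdf6, a ligand of the GDF5/6/7 group known from joint and eye development, had a similar place in MamBo43. It was at 37.9 CPM in untreated MamBo43, and at 88.4 in the withdrawn and 7.75 in the 60-day MamBo43 TRT library. No count of Gdf6 was found in any of the 4 MamBo38 libraries. MamBo89 had 0.390 CPM in the clone, 3.59 in the parental culture, 4.95 in the withdrawn and 1.58 in the 60-day library. Set against 3 counts per library, the mean of untreated MamBo43 was at least 251-fold higher than that of MamBo38, and the mean of MamBo43 TRT at least 319-fold higher. Gdf6 and Bmp4 were thus both lower in the 60-day than in the withdrawn MamBo43 TRT library, by 11.4-fold and 3.498-fold. The summed epithelial level was lower in the same library, and its part in this difference was not tested.

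Bmp7, which is expressed in many epithelia, followed the other tumor. It was at 4.87 CPM in the MamBo89 clone, 8.70 in the parental culture, 6.87 in the withdrawn and 8.65 in the 60-day library. It had no counts in untreated MamBo43 or in any MamBo38 library. In MamBo43 TRT it had 0.0490 CPM (1 count) in the withdrawn and 1.76 CPM (46 counts) in the 60-day library. MamBo89 was at least 62.0-fold above untreated MamBo43 and at least 48.2-fold above MamBo38. Bmp2, the closest relative of Bmp4, was low in every library. It reached 8.29 CPM in the untreated MamBo38 library of the second code and lay between 1.06 and 1.78 CPM in the 3 others of that line. It was 0.313 CPM in untreated MamBo43, 0.343 and 0.115 in MamBo43 TRT and 0.146 to 0.291 in MamBo89, where it had 3 to 5 counts. MamBo38 was above the other states, which overlapped among themselves.

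Grem1, which binds BMP2, BMP4 and BMP7 and keeps them from their receptors, was ordered differently from Bmp4. It was lowest in MamBo89, at 0.0974 CPM in the clone, 0.875 in the parental culture, 0.874 in the withdrawn and 1.74 in the 60-day library. Untreated MamBo43 had 2.58 CPM, and MamBo43 TRT had 22.5 in the withdrawn and 31.9 in the 60-day library. MamBo38 had 115 and 169 CPM untreated (first and second code), 71.1 in the withdrawn and 87.6 in the 60-day library. The 4 states did not overlap. The mean of MamBo38 was 123-fold that of MamBo89 and 42.8-fold that of untreated MamBo43. MamBo43 TRT was 10.5-fold above the untreated library of its line. The order resembled that of the mesenchymal marker sum, in which MamBo43 TRT and MamBo38 overlapped. The part of cell state in its level was not tested.

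Smad6 and Id2 shared a profile with untreated MamBo43 at the top. Smad6, the inhibitory SMAD that blocks BMP type I receptors, was at 12.8 CPM there. The 2 MamBo43 TRT libraries had 4.75 and 4.83 CPM, MamBo38 had 3.70 to 4.78, and MamBo89 had 1.90 in the clone and 4.31 to 5.71 in the 3 other libraries. These 3 states overlapped. The untreated MamBo43 level was 2.68-fold that of MamBo43 TRT. Id2, which in the mammary gland is tied to lobuloalveolar differentiation, was at 142 CPM in untreated MamBo43, 62.1 and 66.3 in MamBo43 TRT, 38.0 in the MamBo89 clone, 67.6 to 90.2 in the 3 other MamBo89 libraries, and 33.5 to 49.4 in MamBo38. Untreated MamBo43 was 3.42-fold above MamBo38. It is 1 library, so no spread can be given for it.

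Id3 and Id1 took the order of Grem1. Id3, a regulator of lymphoid and endothelial differentiation, was at 2.24 CPM in the MamBo89 clone, 5.02 in the parental culture, 4.02 in the withdrawn and 6.36 in the 60-day library. Untreated MamBo43 had 13.5 CPM, and MamBo43 TRT had 63.5 and 72.3. MamBo38 had 109 and 144 CPM untreated, 184 in the withdrawn and 201 in the 60-day library. No states overlapped, and the mean of MamBo38 was 36.1-fold that of MamBo89 and 11.8-fold that of untreated MamBo43. Id1, often used as a readout of BMP signalling, had the same order with much smaller steps. It was at 14.9 to 26.7 CPM in MamBo89, 28.4 in untreated MamBo43, 30.4 and 36.4 in MamBo43 TRT, and 37.4 to 75.05 in MamBo38. The gap between MamBo43 TRT and MamBo38 was therefore about 1 CPM wide, and the mean of MamBo38 was 2.48-fold that of MamBo89. Id4, which marks basal mammary cells, stayed between 1.297 and 5.26 CPM in all 11 libraries. Each state overlapped the next in order.

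**Figure D1:**
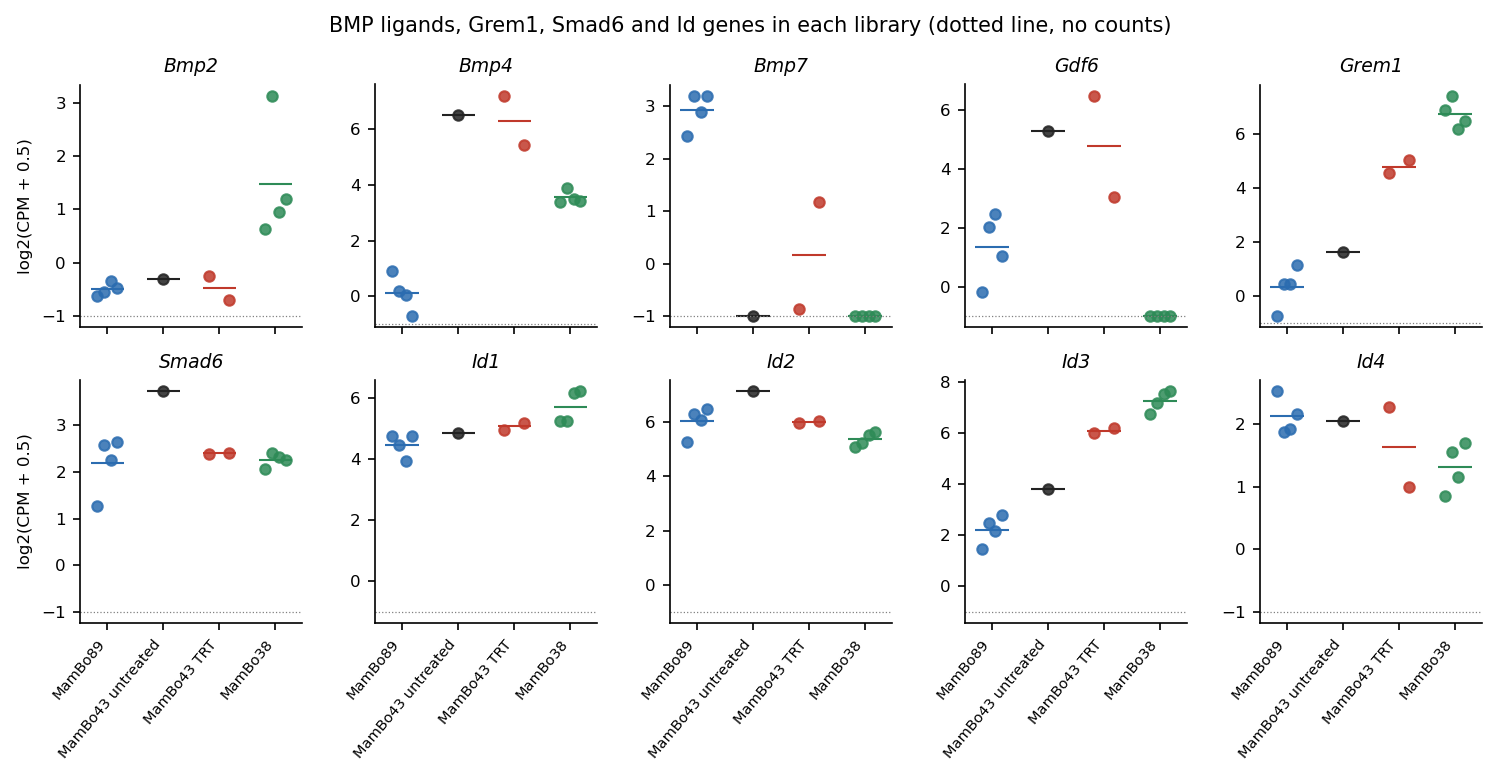
Level of each of the 10 genes on a log2(CPM + 0.5) axis in the 11 libraries, grouped by state, with the mean of the log2 values as a bar and no counts as a dotted line. Bmp4 and Gdf6 are high in MamBo43, Bmp7 in MamBo89, and Grem1 and Id3 climb from MamBo89 to MamBo38 without overlap.

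Levels can be compared between genes only per length, and the following values are CPM per kb of exon. The 4 ligand genes summed to 1.97 to 3.52 in MamBo89, 51.4 in untreated MamBo43, 90.9 in the withdrawn and 21.5 in the 60-day MamBo43 TRT library, and 4.68 to 8.76 in MamBo38. The 4 Id genes summed to 40.9 to 64.6 in MamBo89, 91.2 in untreated MamBo43, 88.3 and 99.4 in MamBo43 TRT, and 108 to 198 in MamBo38. The highest ligand sums were thus in MamBo43 and the highest Id sums in MamBo38, and both were lowest in MamBo89. With Bmp6 and the 9 other ligand genes of the pathway list added, the ligand sum was 2.08 to 4.10 in MamBo89, 55.5 in untreated MamBo43, 95.9 and 27.3 in MamBo43 TRT and 17.6 to 27.3 in MamBo38. The untreated MamBo38 library of the second code then equalled the 60-day MamBo43 TRT library, and the 3 other MamBo38 libraries were at 17.6 to 18.8. Bmp6 alone gave 12.8 to 18.1 of the sum in MamBo38. Among the 4 genes, Bmp7 made up 49.9% to 79.5% of the ligand sum in MamBo89, and Bmp4 made up 72.3% to 93.6% in the other libraries. Grem1 per kb was 3.29 to 5.93 times the sum of Bmp2, Bmp4 and Bmp7 in MamBo38, against 0.0825 and 0.399 in MamBo43 TRT, 0.0153 in untreated MamBo43 and 0.0126 to 0.186 in MamBo89.

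The make-up of the Id sum also changed. Id3 was 3.05% to 5.50% of it in MamBo89, 8.26% in untreated MamBo43, 40.2% and 40.6% in MamBo43 TRT, and 55.7% to 62.6% in MamBo38. Id2 was 63.8% in untreated MamBo43 and at most 12.8% in MamBo38. Within MamBo43 TRT, where the ligand sum fell from 90.9 in the withdrawn to 21.5 in the 60-day library, Smad6 differed 1.02-fold, Id2 1.07-fold, Id3 1.139-fold and Id1 1.20-fold, each slightly higher in the 60-day library. Id4 went the way of the ligand sum, 2.88-fold lower in the 60-day library. These are RNA levels. Ligand protein and SMAD phosphorylation were not analysed here.

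**Figure D2:**
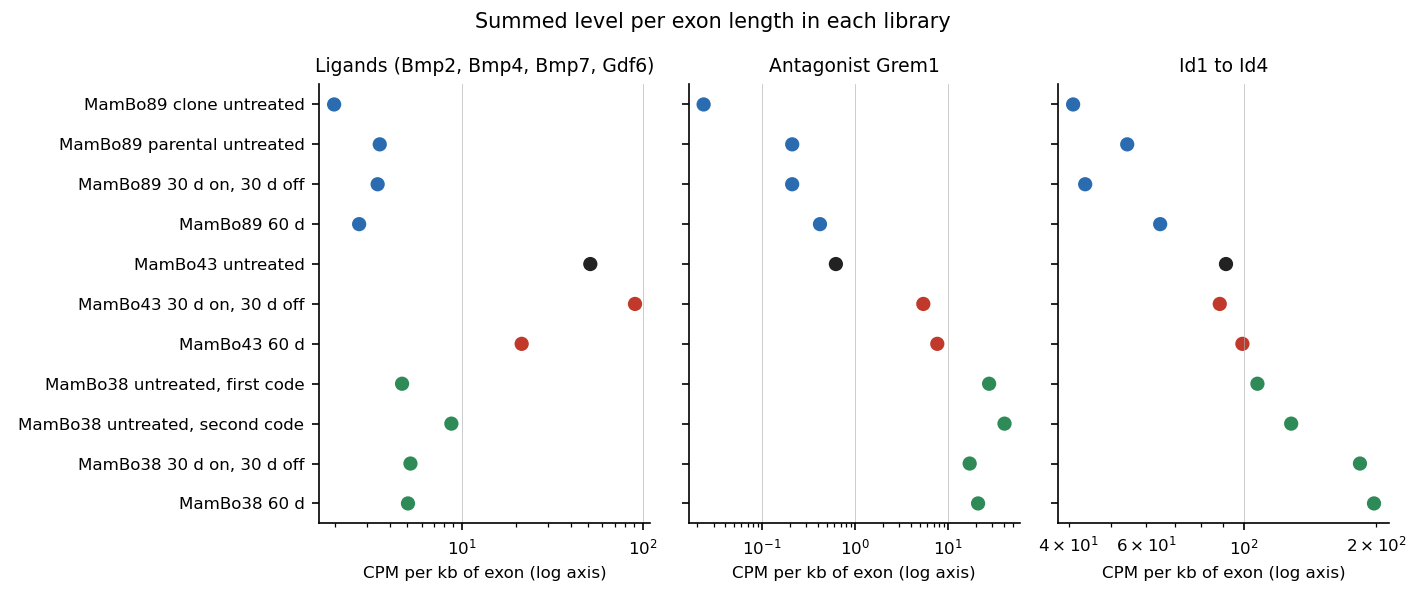
Summed CPM per kb of exon of the 4 ligand genes, of Grem1 and of the 4 Id genes in each library, on log axes. The ligand sum is highest in the 3 MamBo43 libraries, while Grem1 and the Id sum are highest in the 4 MamBo38 libraries.

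Profiles over the 11 libraries were compared by the root mean square distance of mean-centred log2(CPM + 0.5) values, where 0 means an identical profile. Grem1 and Id3 were 0.777 apart, and Id3 ranked 50 of 12363 genes by closeness to Grem1. Smad6 and Id2 were 0.353 apart, and Id2 ranked 52 by closeness to Smad6. From Bmp4, the distance was 2.15 to Id3 (rank 1007), 2.38 to Id1 (rank 2795), 2.41 to Smad6 (rank 3080) and 2.58 to Id2 (rank 5834). The measure favours genes of small range, so ranks are comparable only from the same starting gene. The genes nearest to Bmp4 were Timp3 (0.628), an inhibitor of metalloproteinases, Pkhd1l1 (0.655), Ackr3 (0.861), an atypical chemokine receptor, Adgrg2 (0.884) and Tnfrsf11b (0.885), the decoy receptor osteoprotegerin. Nearest to Smad6 were Clcn2 (0.193), a chloride channel, Gadd45b (0.213), Fmo5 (0.213) and Smpd2 (0.242). Nearest to Id1 were Ubxn11 (0.132), Tradd (0.267), Tob2 (0.275), Ift46 (0.290) and Gm26566 (0.292). No shared function is implied.

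HER2-negative and HER2-positive cells were compared in the study, here as 6 against 5 libraries. Differences here and below are log2 fold changes ± SE from edgeR, and calls needed a Benjamini-Hochberg adjusted p below 0.1 and a difference of 1 or more in size. Of the 10 genes, 9 entered the comparison. Bmp2 had too few counts. Grem1 (6.04 ± 0.80), Id3 (4.35 ± 0.52) and Id1 (1.02 ± 0.28) were called higher in the HER2-negative libraries, and Bmp7 (-4.18 ± 1.53) was called lower. The direction of Bmp7 turned within tumor B (5.81, against no counts in untreated MamBo43). That turn rested on 1 MamBo43 TRT library with 46 counts, since the withdrawn one had 1 count and MamBo38 had none. The HER2 call of Bmp7 was lost with the library code as a covariate (-3.22) or among the libraries of the second code (-3.22). Over all 12364 genes tested, 32.8% were called, 15.8% as higher and 17.0% as lower. Grem1, Id3 and Id1 were the genes of the 9 whose groups did not overlap, and 34.9% of all genes did not overlap either, 17.7% of all genes with the HER2-negative libraries above. The differences were 1.05 ± 1.48 for Bmp4, 0.72 ± 1.93 for Gdf6, -0.44 ± 0.39 for Smad6, -0.77 ± 0.30 for Id2 and -0.73 ± 0.33 for Id4. HER2 status and tumor of origin are mixed in this comparison. Within tumor B the difference was 4.96 for Grem1, 3.21 for Id3 and 0.72 for Id1, which was no longer called. It was -1.25 for Bmp4, -1.27 for Gdf6, -1.56 for Smad6 and -1.57 for Id2, with untreated MamBo43 as the only HER2-positive library. Without the untreated MamBo43 library, Bmp4 differed by 5.86 and was called. Without the withdrawn MamBo43 TRT library, Bmp4 differed by -0.14 and Gdf6 by -2.64. With counts summed per line and HER2 status, 2 sums against 2, the differences were 5.34 for Grem1, 3.70 for Id3, 0.84 for Id1 and -2.83 for Bmp7, and none was called. Among the 8 libraries of the second code it was 5.91 for Grem1, 3.91 for Id3 and 0.57 for Id1.

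Within the line of descent of tumor B, the targets split. Between MamBo43 TRT and untreated MamBo43, Grem1 (3.39 ± 0.86) and Id3 (2.33 ± 0.53) were higher and Smad6 (-1.42 ± 0.51) and Id2 (-1.15 ± 0.40) lower. Bmp7 was also called higher, against no counts in untreated MamBo43. These 5 calls among 10 genes stand beside 29.1% of 13782 genes, 13.6% higher and 15.5% lower. With 1 library on a side, 88.5% of all genes did not overlap. Bmp4 differed by 0.06 ± 0.73, Gdf6 by 0.34 ± 1.43 and Id1 by 0.23 ± 0.47. Without the withdrawn library the difference was -1.14 for Bmp4 and -2.32 for Gdf6. The calls of Smad6 and Id2 were lost when either MamBo43 TRT library was left out, with differences of -1.45 to -1.41 for Smad6 and -1.19 to -1.13 for Id2 over all alternatives. The call of Bmp7 was lost without the 60-day MamBo43 TRT library, without any 1 of the parental, withdrawn and 60-day MamBo89 libraries, or with only the libraries compared.

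Between MamBo38 and the same untreated MamBo43 library, 7 of 10 genes were called, against 35.9% of all genes, 17.4% higher and 18.5% lower, and 81.1% of all genes did not overlap. Grem1 (5.42 ± 0.93), Id3 (3.56 ± 0.55) and Bmp2 (3.30 ± 1.31) were higher. Bmp4 (-3.01 ± 0.58), Id2 (-1.78 ± 0.34), Smad6 (-1.57 ± 0.44) and Gdf6, with no counts in MamBo38, were lower. The call of Bmp2 was lost with only the libraries compared. Id1 differed by 0.96 ± 0.46 and was not called, but it was called at 1.11 without either untreated MamBo38 library. Between MamBo43 TRT and MamBo38, the HER2-negative states, 6 of 10 genes were called, against 20.4% of all genes, 10.2% in each direction, and 58.7% of all genes did not overlap. Bmp4 (3.07 ± 0.50) was higher in MamBo43 TRT, as were Gdf6 and Bmp7 against no counts. Grem1 (-2.02 ± 0.54), Id3 (-1.23 ± 0.35) and Bmp2, at 3 and 7 counts in MamBo43 TRT, were lower. Smad6 differed by 0.15 ± 0.38 and Id1 by -0.73 ± 0.34. Without the withdrawn MamBo43 TRT library the calls of Grem1 and Id3 were lost, and without the 60-day library those of Bmp2 and Bmp7. These comparisons share libraries and are not independent of each other.

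Between untreated MamBo43 (1 library) and untreated MamBo89 (2 libraries), Bmp4 (6.52 ± 0.61) and Gdf6 (4.28 ± 0.89) were called higher in MamBo43 and Bmp7 lower, 3 of 9 genes beside 7.4% of 12867, 4.87% higher and 2.53% lower. Smad6 (1.83 ± 0.89), Id2 (1.31 ± 0.48), Id3 (1.92 ± 0.87) and Grem1 (2.42 ± 1.501) were higher in the MamBo43 library than in both MamBo89 libraries but were not called, and 71.4% of all genes did not overlap here. In the fit of all 11 libraries with 4 MamBo89 libraries, Smad6, Id2 and Id3 were called as well, and calls over all genes rose from 952 to 2604. MamBo43 in this comparison has no spread of its own.

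**Figure D3:**
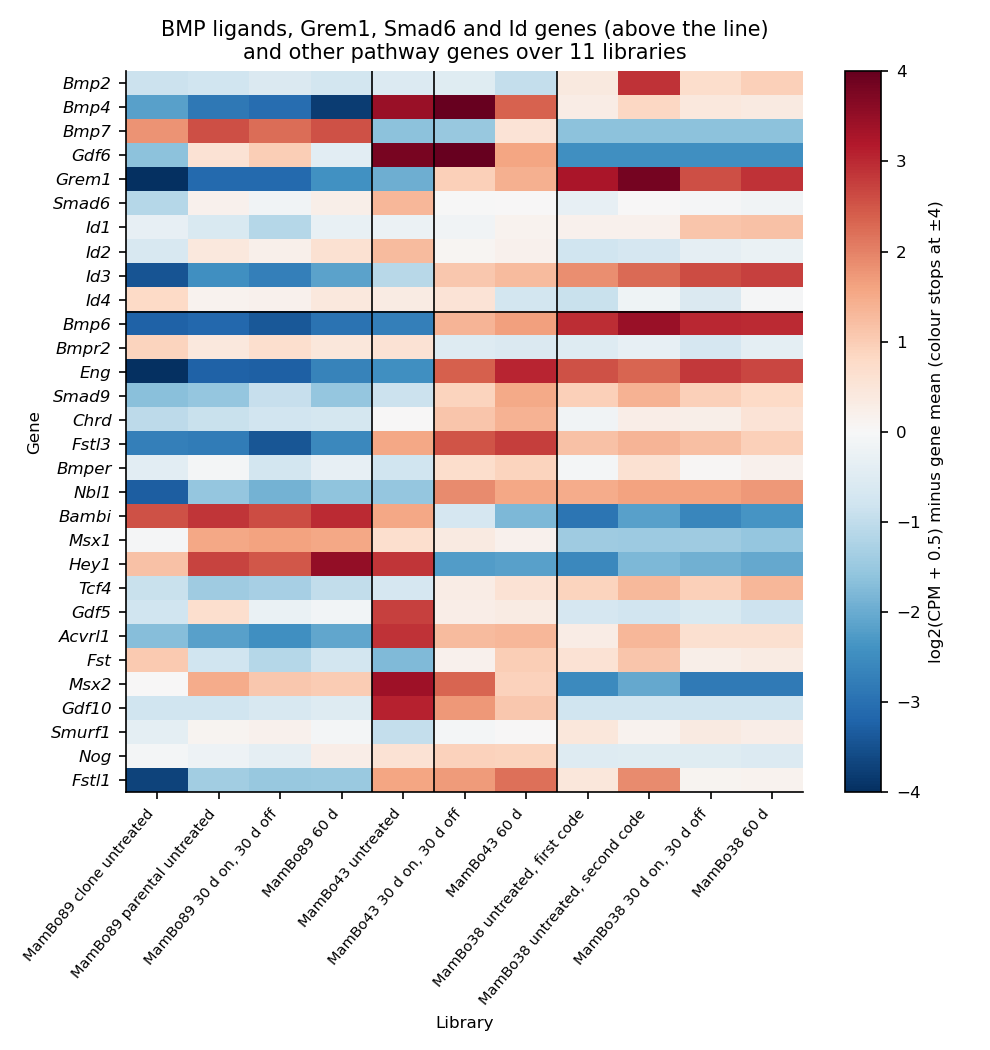
Deviation of each library from the gene's mean over 11 libraries, as log2(CPM + 0.5), for the 10 genes (above the line) and the other pathway genes named below; vertical lines part the states. Grem1, Id3 and Bmp6 rise from left to right, and Bambi and Hey1 fall. Bmp4 and Gdf6 are highest in the MamBo43 libraries, and Smad6 and Id2 in the untreated MamBo43 library alone.

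Trastuzumab itself was compared with no treatment within MamBo89, which keeps HER2, and within MamBo38, which has none. With 2 libraries a side, edgeR called no gene in either line (0.0% of 12046 and 0.0% of 11861), while 186 and 503 genes had an unadjusted p under 0.05 and DESeq2 called 3 and 4. In MamBo38, Id1 was at 37.9 and 37.4 CPM untreated and at 71.9 and 75.05 with antibody, a difference of 0.95 ± 0.11. Id2 (0.43 ± 0.12) and Id3 (0.59 ± 0.16) were also higher in both treated libraries, and Grem1 (-0.85 ± 0.21) was lower. Groups did not overlap for these 4 of 8 genes tested, beside 43.1% of all genes. Bmp4 differed by -0.22 ± 0.23 and Smad6 by 0.04 ± 0.26. Both treated libraries carry the first code. Against the untreated library of that code alone they gave a difference of 0.93 for Id1, 0.79 for Id3 and -0.56 for Grem1. In MamBo89, Bmp4 was lower in both treated libraries (-1.66 ± 0.99, at 2 to 28 counts). The 8 other genes tested overlapped between groups, beside 26.2% of all genes that did not. Without the parental culture, which leaves the clone as the sole untreated MamBo89 library, 2296 genes were called, Gdf6, Grem1, Smad6 and Id2 among them, and without the clone 5. Without the untreated MamBo38 library of the first code, 1057 genes were called, Bmp2 and Grem1 among them, and without that of the second code, 8. A test of whether the antibody effect differed between the lines called 0 of 12983 genes in edgeR, with 218 at an unadjusted p under 0.05 and none of these among the 35 pathway genes tested.

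The other BMP pathway genes, 51 in 6 classes, were tested in the same fits. Between HER2-negative and HER2-positive libraries 35 had enough counts. Of these, 8 were called higher and 4 lower in the HER2-negative libraries (34.3%, beside 32.8% of all genes). The median difference of the 35 was 0.54, beside -0.04 over all genes. HER2 status and tumor of origin are mixed here too. With counts summed per line and HER2 status, 2 sums against 2, 0 of 39 pathway genes were called, beside 4 of 13399 genes. Among the 10 other ligands, Bmp6 was the one with enough counts. Bmp6, a ligand also known from iron regulation in the liver, was at 0.117 to 0.326 CPM in MamBo89, 0.470 in untreated MamBo43, 16.3 and 19.8 in MamBo43 TRT and 49.8 to 70.8 in MamBo38. It was higher in the HER2-negative libraries by 7.27 ± 0.55 (edgeR adjusted p = 4.39e-06). Within tumor B its difference was 6.47. It lies outside the sums of 4 ligand genes. Its states were in the order of Grem1 and Id3. Between MamBo43 TRT and untreated MamBo43 it rose by 5.25 ± 0.44 (adjusted p = 5.88e-05), and between MamBo38 and untreated MamBo43 by 6.88 ± 0.46 (adjusted p = 2.26e-06). MamBo43 TRT remained below MamBo38 (-1.63 ± 0.23, adjusted p = 0.000731).

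Other ligands moved the opposite way at low levels. Gdf5, the closest relative of Gdf6, was at 5.87 CPM in untreated MamBo43, 0.637 and 0.690 in MamBo43 TRT and at most 0.119 in MamBo38. It was lower in MamBo43 TRT (-3.13 ± 0.95, adjusted p = 0.0305) and in MamBo38 (-6.19 ± 0.89, adjusted p = 0.000310). The first of these calls was lost without either MamBo43 TRT library. Gdf10 was at 6.77 CPM in untreated MamBo43, 2.40 and 1.34 in MamBo43 TRT, and had no counts in MamBo38 (adjusted p = 0.000271). It was also above the 2 untreated MamBo89 libraries, which had no counts. A single MamBo43 library set against them cannot show a difference between the lines.

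Of the receptors and co-receptors, 9 of 10 were tested, and between HER2-negative and HER2-positive libraries 1 rose and 1 fell (22.2%, beside 32.8% of all genes). Eng (endoglin), a co-receptor for TGF-β family ligands best known from endothelium, was at 0.146 to 1.31 CPM in MamBo89 and 1.60 in untreated MamBo43. It was at 60.5 and 94.3 CPM in MamBo43 TRT and 58.1 to 80.9 in MamBo38. It rose by 6.30 ± 0.48 (adjusted p = 4.44e-06), while the summed endothelial markers stayed under 1 CPM in every library. The type II receptor gene Bmpr2 fell by 1.13 ± 0.11 (adjusted p = 1.59e-05), from 100 to 137 CPM to 46.1 to 59.5. The type I receptor gene Bmpr1a was at 64.4 to 155 CPM and Acvr1 at 60.0 to 107 CPM across the 11 libraries, and neither was called. Acvrl1, a type I receptor known from endothelium, was at 22.1 CPM in untreated MamBo43 and under 0.5 in MamBo89. It exceeded untreated MamBo89 by 6.15 ± 0.96 (adjusted p = 0.000522), and was lower in MamBo38 than in untreated MamBo43 by a difference of -2.23 ± 0.49 (adjusted p = 0.00414). In MamBo43 TRT its difference was -1.65 ± 0.58 (adjusted p = 0.0513), a call lost without either MamBo43 TRT library.

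Of 6 SMAD and SMURF genes, 1 was called between HER2-negative and HER2-positive libraries (16.7%, beside 32.8% of all genes). This was Smad9, a receptor-regulated SMAD, higher in the HER2-negative libraries by 4.08 ± 0.72 (adjusted p = 0.000742). It was at 2.28 to 4.10 CPM there, against at most 0.391. The more abundant Smad1 (21.8 to 44.7 CPM), Smad5 (60.6 to 119 CPM) and Smad4 (65.9 to 119 CPM) were not called in any of the 7 comparisons. Smurf1, a ubiquitin ligase that acts on BMP SMADs, was higher in MamBo38 than in untreated MamBo43 by 1.26 ± 0.23 (adjusted p = 0.00154).

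Of 8 antagonists tested other than Grem1, 4 were called higher in the HER2-negative libraries and 0 lower (beside 15.8% of all genes called higher and 32.8% called either way). Of these 4, Nbl1 was the one still called within tumor B, at 3.29. Against untreated MamBo43, 3 of 10 were higher and 1 lower in MamBo38 (beside 17.4% and 18.5% of all genes), with a median difference of -0.02. In MamBo43 TRT 5 of 10 were higher and 0 lower (beside 13.6% and 15.5% of all genes). Nbl1 (DAN), of the family of Grem1, was at 1.12 to 4.97 CPM in the HER2-positive libraries and 44.2 to 58.7 in the HER2-negative ones (3.65 ± 0.34, adjusted p = 1.35e-05). Chordin (Chrd), which binds BMP2 and BMP4, was at 0.146 to 0.861 CPM and 0.721 to 3.03 CPM (2.09 ± 0.54, adjusted p = 0.00739). Within tumor B its difference was 0.88 and was not called. Fstl3 rose by 2.40 ± 1.02 (adjusted p = 0.0685), with untreated MamBo43 at 40.8 CPM against at most 1.85 in MamBo89. Without that MamBo43 library its difference was 5.09. Within tumor B its difference was 0.26 and was not called, and the call was also lost without any 1 of the MamBo89 or MamBo43 TRT libraries. Bmper rose by 1.04 ± 0.30 (adjusted p = 0.0122) and lost its call without any 1 of the untreated MamBo43, withdrawn MamBo89 and both MamBo43 TRT libraries, at differences of 0.92 to 0.99. It was not called within tumor B either, at 1.498. Follistatin (Fst) was higher in MamBo38 (2.65 ± 0.96, adjusted p = 0.0463) and MamBo43 TRT (2.67 ± 0.996, adjusted p = 0.0662) than in untreated MamBo43. The second of these calls was lost without the 60-day library. Noggin (Nog) stayed under 1 CPM everywhere and was lower in MamBo38 than in untreated MamBo43 (-3.61 ± 0.69, adjusted p = 0.00193) and in MamBo43 TRT, where the excess over MamBo38 was 4.15 ± 0.59 (adjusted p = 0.000737).

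Of 8 other targets tested, 0 were called higher and 3 lower in the HER2-negative libraries (37.5%). Over all genes 17.0% were called lower and 32.8% either way. The median difference of these targets was -1.32. Hey1, a repressor also induced by Notch, was at 15.3 to 79.4 CPM in the HER2-positive and 0.673 to 1.502 CPM in the HER2-negative libraries (-5.34 ± 0.40, adjusted p = 4.20e-06). Bambi, a decoy receptor for the TGF-β family, was at 10.4 to 29.4 CPM against at most 1.86 (-5.39 ± 0.85, adjusted p = 0.000336). Msx1, a homeobox target, fell by 1.97 ± 0.52 (adjusted p = 0.00825) and was not called within tumor B, at -1.44. Its relative Msx2 was at 77.2 CPM in untreated MamBo43, 36.8 and 13.3 in MamBo43 TRT, 6.87 to 20.1 in MamBo89 and 0.531 to 1.28 in MamBo38. It was lower in MamBo38 than in untreated MamBo43 (-6.64 ± 0.57, adjusted p = 1.08e-05) and lower than in MamBo43 TRT, which exceeded it by 5.01 ± 0.52 (adjusted p = 0.000104). MamBo43 TRT was below untreated MamBo43 by a difference of -1.62 ± 0.64 (adjusted p = 0.0776). This call was lost without the 60-day MamBo43 TRT library (-1.07), without the untreated MamBo38 library of the first code, without the withdrawn MamBo89 library, or with only the libraries compared. Msx2 and Bambi were lower in the 60-day than in the withdrawn MamBo43 TRT library, by 2.76-fold and 3.24-fold, as were Bmp4, Gdf6 and the epithelial marker sum. Whether these share a source was not tested. Smad7, the second inhibitory SMAD gene, stayed between 11.7 and 42.2 CPM and was not called in any comparison. Nor was the osteoblast regulator Runx2, at 34.3 to 67.1 CPM, or Atoh8, at 0 to 2.20 CPM. Dlx5 was at 1.84 CPM in untreated MamBo43 and at most 1.11 elsewhere, and was called in 1 comparison, lower in MamBo38 than in untreated MamBo43 (-2.29 ± 0.75, adjusted p = 0.0312).

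Among the E proteins that Id proteins bind, Tcf4 rose by 1.97 ± 0.22 (adjusted p = 3.76e-05), from 25.2 to 42.3 CPM in the HER2-positive to 83.7 to 171 CPM in the HER2-negative libraries. Tcf3 (67.1 to 146 CPM) and Tcf12 (87.4 to 324 CPM) were not called. Between HER2-negative and HER2-positive libraries 1 of 3 E protein genes was thus called (33.3%, beside 32.8% of all genes).

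Over the comparisons within tumor B, 9 pathway genes rose and 6 fell of 40 tested between MamBo43 TRT and untreated MamBo43 (37.5%, beside 29.1%). Fewer pathway genes, and fewer of all genes, were called when either MamBo43 TRT library was left out, which leaves 1 library a side. Without the 60-day library the pathway share was below that of all genes. Between MamBo38 and untreated MamBo43, 8 rose and 10 fell (45.0%, beside 35.9%). Between MamBo43 TRT and MamBo38, 8 were higher and 1 lower in MamBo43 TRT (22.5%, beside 20.4%). Untreated MamBo43 exceeded untreated MamBo89 in 5 of 37, among them Fstl1 (3.97 ± 0.87, adjusted p = 0.00943) and Fstl3 (4.72 ± 0.69, adjusted p = 0.000271), and was lower in 0 (13.5%, beside 7.4%). No pathway gene was called for trastuzumab by edgeR or DESeq2 in MamBo89 (0 of 30 tested with an unadjusted p under 0.05) or in MamBo38 (3 of 33). Some were called when the parental MamBo89 culture or the untreated MamBo38 library of the first code was left out, as were many of all genes. Those fits leave 1 untreated library.

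**Figure D4:**
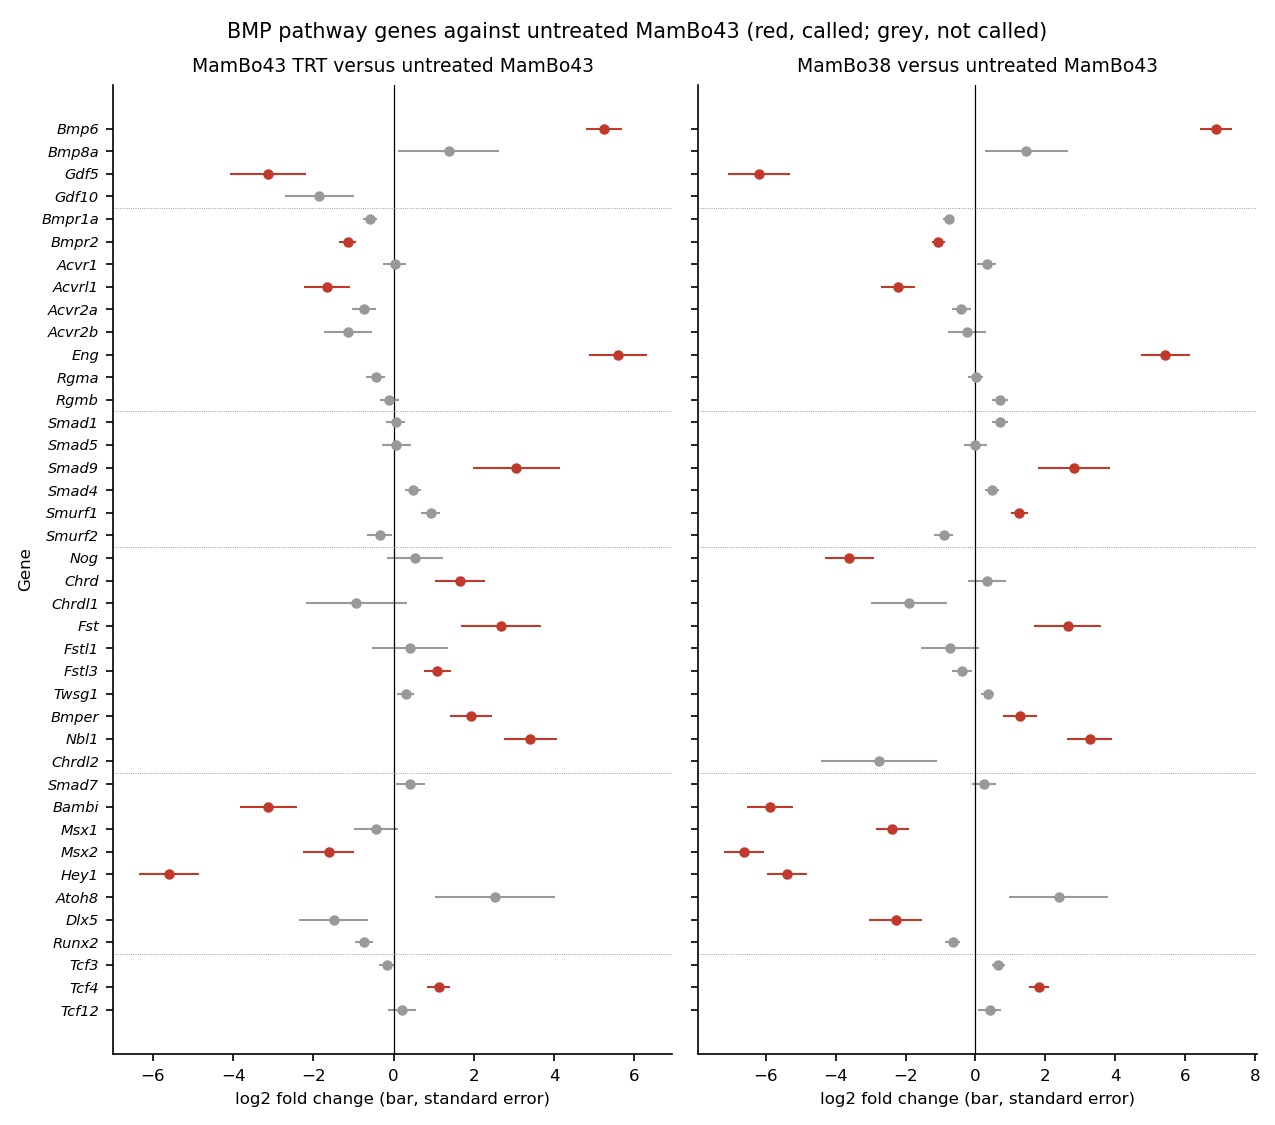
Log2 fold change with its standard error for the tested pathway genes of MamBo43 TRT (left) and MamBo38 (right) against the same untreated MamBo43 library, by class and without genes that have no counts in an arm; red marks called genes. Bmp6, Eng and Nbl1 are higher and Hey1, Bambi and Msx2 lower in both panels, which share their control library.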

How the data were processed

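The deposited table holds, per the file headers, 1 column for each of 11 libraries and a count for each of 21846 genes. Per the labels and the study's methods, the authors made libraries with a TruSeq RNA kit, which keeps no strand, read 75 nucleotides in single-end mode, and used STAR 2.5 and RSEM 1.3.0 on mm10 to estimate expected counts. The deposited expected counts are all whole and are not normalized, so no rounding was needed. All columns were used. The annotation and any filter on low counts were not given in the sources used here.

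Groups came from the labels and HER2 status from the study's methods. Genes were filtered with filterByExpr (minimum count 10, minimum total 15), scaled by TMM and tested with glmQLFit and glmQLFTest (edgeR 4.0.16, R 4.3.3), with Benjamini-Hochberg adjustment over all tested genes. Comparisons within tumor B used 1 fit of all 11 libraries in 4 states, since untreated MamBo43 is 1 library. The other comparisons used their own libraries. The error is the absolute log2 fold change over the square root of F, and fitted folds use a prior count of 0.125. No fitted fold is printed where an arm has no counts. Folds of mean CPM against such an arm use 3 counts per library and are lower bounds. This floor covers counting error only. Depth was 17040454 to 27127662 counts, and untreated MamBo43 is 1 library at any depth.

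The 10 genes and all lists were chosen with earlier results of these data known. Pathway genes were named in each comparison if called with groups that did not overlap, up to the 10 largest differences, and if fewer than 5 genes of their class were called. A few others (Bmpr1a, Acvr1, Smad1, Smad4, Smad5, Smad7, Runx2, Atoh8, Dlx5, Tcf3 and Tcf12) were named as class members after their values were seen. For Bmp4, Smad6 and Id1, the 5 nearest profiles were named, except 1 that is not reported here. Alternatives were DESeq2 1.42.0, RLE factors, no filter, an adjusted p under 0.05, covariates, subsets of libraries, sums per line and leaving out each library. The fits were tested on simulated data. Coordinates come from GENCODE M21 and promoters from RefSeq on GRCm38.p6.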

Additional observations from a re-analysis of the deposited data

Results flagged for a closer look

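In 117 groups of 4 to 6 libraries (the 10 genes and 20 named pathway genes, by line or HER2 status), 23 extreme values stood far from the next library of their group. The rule was set to flag about 1 in 20 groups by chance, but the 23 values are not set against that rate. Groups share libraries, so these values are not independent. The 10 genes were chosen with these levels in view, so their values are a description. A HER2 group holds more than 1 line, and a gap there cannot be told apart from the line. Untreated MamBo43 was the highest HER2-positive library for Bmp4 (91.3 CPM), Gdf6 (37.9 CPM), Msx2 (77.2 CPM), Fstl3 (40.8 CPM), Fstl1 (39.9 CPM), Acvrl1 (22.1 CPM), Gdf10 (6.77 CPM), Gdf5 (5.87 CPM) and Chrd (0.861 CPM). The withdrawn MamBo43 TRT library was the highest HER2-negative library for Bmp4 (148 CPM), Gdf6 (88.4 CPM), Msx2 (36.8 CPM) and Bambi (1.86 CPM). The 60-day MamBo43 TRT library was the highest HER2-negative library for Bmp7 (1.76 CPM).

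Within a line, the untreated MamBo38 library of the second code was the highest of 4 for Bmp2 (8.29 CPM, also the highest of the 6 HER2-negative libraries), Bmp6 (70.8 CPM) and Fstl1 (50.1 CPM). It is the only MamBo38 library of its code, and the code cannot be told apart from the library. The MamBo89 clone was the highest MamBo89 and HER2-positive library for Fst (16.1 CPM) and the lowest MamBo89 library for Msx1 (6.43 CPM) and Fstl1 (0.536 CPM). The withdrawn MamBo89 library was the highest of its line for Smad9 (0.350 CPM). The causes of these values were not tested.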

How the results depend on the processing

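No paired analysis was possible because the labels give no replicate numbers that libraries of different groups share. The library code, which libraries do share, was fitted as a covariate for HER2 status. Of 686 alternative values of the 10 genes' differences, 28 changed sign, 26 of them of a difference that was not called. The 2 others concern Bmp7, which was higher in HER2-negative libraries with tumor of origin as a covariate (5.78) or within tumor B (5.81), where untreated MamBo43 had no counts. The HER2 call of Id1 was lost in 9 of 19 alternatives, and its difference was 0.55 to 1.13 over all 19. With counts summed per line and HER2 status, 2 sums against 2, 4 genes and 0 pathway genes were called in place of 4052 and 12. In the 4-state fit, untreated MamBo43 against all 4 MamBo89 libraries, treated ones included, gave 2604 genes and 9 pathway genes in place of 952 and 5. For trastuzumab, DESeq2 gave 3 calls in MamBo89 and 4 in MamBo38, and the libraries of the first code alone gave 8 in MamBo38. Leaving out 1 library gave 3795 to 4607 genes and 10 to 14 pathway genes for HER2 status, 2870 to 4553 and 7 to 18 for MamBo43 TRT against untreated MamBo43, 4700 to 5302 and 18 to 20 for MamBo38 against it, 1971 to 3111 and 8 to 11 for MamBo43 TRT against MamBo38, 0 to 2296 and 0 to 7 for trastuzumab in MamBo89, and 0 to 1057 and 0 to 5 in MamBo38. Where 1 library was left in an arm, it was assumed to vary like the others. Fits without untreated MamBo43 (3 comparisons), and without either MamBo89 library in the comparison of untreated lines, could not be made. Of 756 alternative values of named pathway genes, 713 kept their call, 43 lost it and 0 changed sign. Untreated MamBo43 is 1 library, and more depth would not give it a spread.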
